A study of Mus musculus with 5 samples.

Results

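Fibroblasts in a tumour feed and instruct their neighbours through secreted growth factors. The 10 genes described here belong to that group: the fibroblast growth factor genes Fgf2, Fgf7 and Fgf10, their receptor gene Fgfr1, the hepatocyte growth factor gene Hgf, the EGF-family ligand genes Nrg1, Hbegf, Areg and Ereg, and Gas6. They were taken by gene symbol, and all 10 were found among the 15180 genes of the table. The cells came from KPC mouse pancreatic tumours and were sorted as live cells that carry podoplanin and lack CD45, EpCAM and E-cadherin. One group of mice received LDE225 (sonidegib), which blocks Smoothened and thereby Hedgehog signalling, and the other received vehicle, each by oral gavage for 14 days after tumours had formed. The comparison had 2 LDE225 libraries and 3 vehicle libraries, called LDE225 1 and 2 and vehicle 1, 2 and 3. The alleles behind the KPC name, the age of the mice and whether each library was 1 mouse were not given in the sources used here.

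FGF7 and FGF10 are made by mesenchymal cells and act on epithelial cells, through a splice form of the receptor FGFR2, while FGF2 acts widely on mesenchymal cells through FGFR1. HGF, also a mesenchymal product, activates the receptor MET. The EGF-family ligands are made as membrane-bound precursors that proteases release, and they activate EGFR or, in the case of neuregulin 1 (Nrg1), ERBB3 and ERBB4. GAS6 activates the receptors AXL, MERTK and TYRO3.

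Fgf7 and Areg had the clearest values in opposite directions among the ligands, so the stretch just before their transcription starts is shown. Each runs 5′ to 3′ along the plus strand of GRCm38.p6 (RefSeq), covers the last 250 bases before the annotated start and ends next to it. Fgf7 lies at chr2:126034408-126034657 and Areg at chr5:91139349-91139598. Capitals mark matches to 4 motifs searched on both strands.

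Fgf7: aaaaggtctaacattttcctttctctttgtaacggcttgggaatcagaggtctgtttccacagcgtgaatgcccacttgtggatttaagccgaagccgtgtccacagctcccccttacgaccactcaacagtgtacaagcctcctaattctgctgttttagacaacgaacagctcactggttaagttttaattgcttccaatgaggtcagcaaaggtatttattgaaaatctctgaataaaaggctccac

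Areg: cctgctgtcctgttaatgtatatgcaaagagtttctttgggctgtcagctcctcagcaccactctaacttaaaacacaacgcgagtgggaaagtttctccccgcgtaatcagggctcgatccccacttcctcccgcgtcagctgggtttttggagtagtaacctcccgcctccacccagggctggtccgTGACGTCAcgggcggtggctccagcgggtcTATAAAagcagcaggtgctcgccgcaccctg

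The motifs were the GLI site GACCACCCA, the cyclic AMP response element TGACGTCA, the AP-1 site TGACTCA and the TATA box TATAAA. They do not overlap each other. The Areg window held a cyclic AMP response element starting 61 bases before the start and a TATA box starting 31 bases before it. The Fgf7 window held none of these letters. Upstream sequence was read for 6 of the 10 genes, and the other windows (Fgf2, Fgf10, Hgf and Gas6) held none either. Among 32851 windows of the same length, 0.225% held the GLI letters, 1.55% the cyclic AMP response element, 4.46% the AP-1 letters and 12.4% the TATA box.

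Values are DESeq2-normalised read counts, which are scaled for depth but not for gene length. The libraries held 13671817 and 14083280 recovered reads with LDE225, and 7578822, 11194991 and 9319936 with vehicle, so both LDE225 libraries were the deeper ones. Gli1, a target and readout of Hedgehog signalling, had 22.5 and 14.4 normalised counts with LDE225, against 315, 463 and 264 with vehicle (log2 fold change -4.16, adjusted p = 0.0355). The genes of the proteins used for sorting were also read. Pdpn, for podoplanin, had 4665 and 5183 normalised counts with LDE225 and 4052, 2123 and 4032 with vehicle. Ptprc, for CD45, had 27.3 and 18.6 with LDE225 and 104, 8.69 and 16.3 with vehicle. Epcam had 687 and 78.6 with LDE225 and 325, 71.5 and 213 with vehicle, and Cdh1, for E-cadherin, had 701 and 191 with LDE225 and 739, 530 and 561 with vehicle. Sums over 12 carcinoma epithelium markers, all detected, were 6605 and 2488 normalised counts with LDE225, against 7492, 7415 and 7322 with vehicle. Sums over 9 fibroblast markers, mostly collagen reads, were 1124810 and 1213030 with LDE225, against 626027, 1084920 and 1217590 with vehicle. Log2 fold changes were positive for 9 of these 9 markers (7 with quantile normalisation), and 3 of them (Dcn, Lum and Pdpn) were above vehicle in both LDE225 libraries.

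Of the 10 genes, 0 passed the limma test adjusted over all 13183 genes tested, where 0.0228% of all genes passed higher and 0.00759% lower. At an unadjusted p under 0.05 there were 3, namely Fgf7 and Fgfr1 higher and Areg lower. Of all 13183 genes tested, 912 were higher and 753 lower at that p in limma, so such values were common. On recovered reads, edgeR called 0 of the 10 (0.0152% of all genes). In edgeR, 2 of the 10 had an unadjusted p under 0.05, against 1665 of the 13183 genes. DESeq2 called Fgf7 higher and none lower. Of the 12670 genes to which it gave an adjusted p, it called 2.39% higher and 1.84% lower. Both LDE225 libraries lay above all vehicle libraries for 4 genes (Fgf7, Fgfr1, Hgf and Nrg1), against 16.6% of all genes, and below them for Areg alone, against 15.2% of all genes. The median log2 fold change of the 10 was 0.11, and that of all genes tested was 0.0030.

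**Figure D1:**
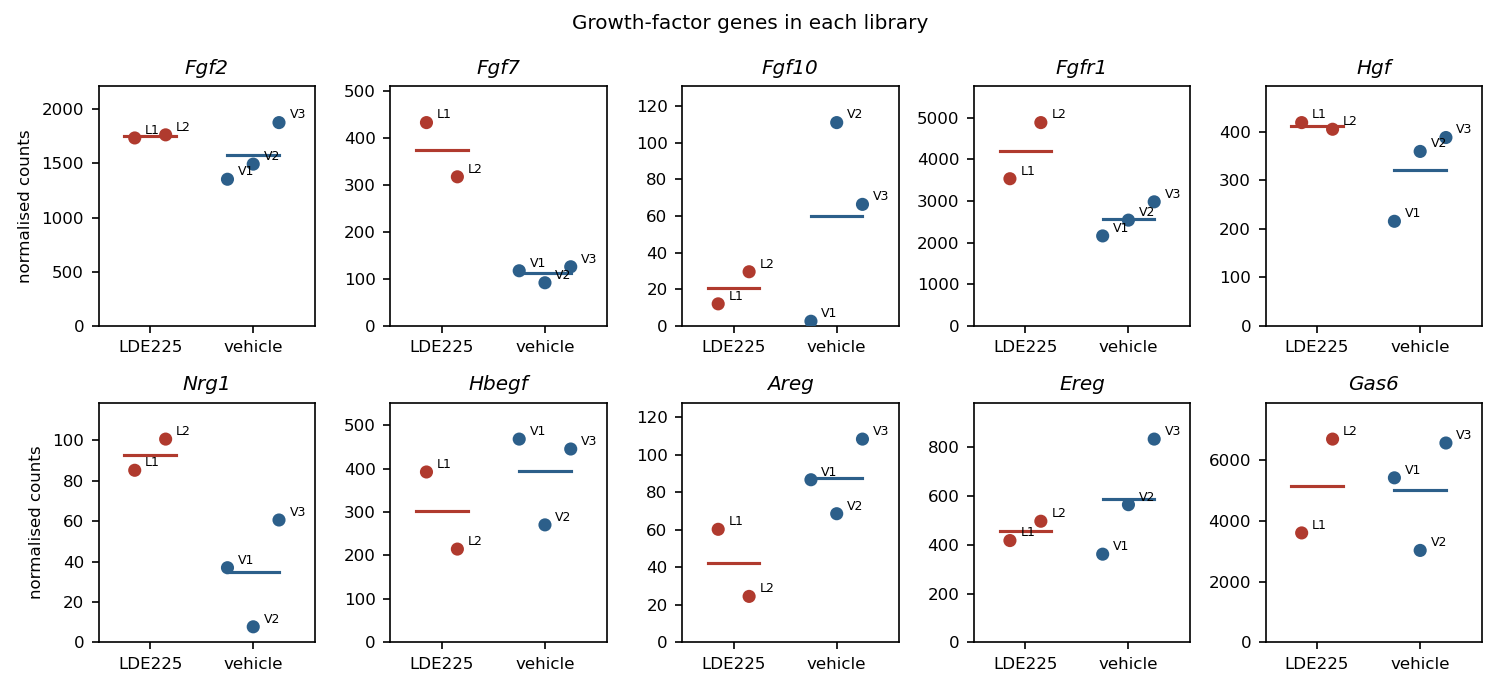
Normalised counts of the 10 growth-factor genes (vertical axes, starting at 0) in the LDE225 libraries (L1, L2, red) and the vehicle libraries (V1 to V3, blue); points are libraries and lines are group means. The groups are apart for Fgf7, Fgfr1, Hgf, Nrg1 and Areg and overlap for the other genes.

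Fgf7, the keratinocyte growth factor gene, stood at 432 and 317 normalised counts with LDE225, against 117, 91.7 and 126 with vehicle. Both LDE225 values were more than all vehicle values, and the vehicle libraries lay close together. The means were 375 ± 81.5 with LDE225 (SD, n = 2) and 112 ± 17.7 with vehicle (SD, n = 3), a ratio of 3.36 (log2 fold change 1.73 ± 0.24, SE, adjusted p = 0.0923 in limma). Fgf7 ranked 32 by unadjusted p among the 13183 genes tested. The adjusted p was 0.0952 in edgeR and 2.76e-06 in DESeq2. Leaving out LDE225 1 gave a log2 fold change of 1.51 and leaving out LDE225 2 gave 1.96, and without any 1 vehicle library it lay between 1.60 and 1.83. Some fibroblast markers had the same order between the groups as Fgf7 and Fgfr1: Lum, a matrix proteoglycan gene picked after its values were seen, had 9800 and 10039 normalised counts with LDE225, against 2301, 2049 and 5633 with vehicle. The part of fibroblast content in the values of both genes was not tested. Fgf7 (ENSMUSG00000027208.14) spans 126034658 to 126091185 on chromosome 2 of GRCm38, where Fam227b overlaps it on the opposite strand.

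Fgf10, which encodes the other mesenchymal ligand of FGFR2, was scarce and uneven. Its values were 12.1 and 29.6 normalised counts with LDE225, against 2.55, 111 and 66.4 with vehicle. Vehicle 1 rested on 2 reads and was the lowest library of all, so the groups overlapped. The log2 fold change was -0.58 ± 1.45 (SE, adjusted p = 0.912), with a 95% interval from -4.05 to 2.89. In edgeR and DESeq2 it was -1.53 (adjusted p = 0.658 and 0.665). The limma value was -2.12 without vehicle 1, 0.37 without vehicle 2, 0.0027 without vehicle 3 and 0.031 without LDE225 1. Per kilobase of exon, the level of Fgf7 was 50.8 and 15.2 times that of Fgf10 in the LDE225 libraries, and 65.2, 1.17 and 2.68 times in the vehicle libraries, so this ratio also overlapped.

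Fgf2, the basic fibroblast growth factor gene, had 1734 and 1763 normalised counts with LDE225, against 1353, 1493 and 1876 with vehicle. The LDE225 values fell inside the vehicle range. Its log2 fold change was 0.17 ± 0.18 (SE, adjusted p = 0.754), with a 95% interval from -0.25 to 0.58. Nudt6, whose gene overlaps Fgf2 on the opposite strand, had between 23.3 and 66.3 normalised counts over the 5 libraries, and the strand setting of the counting was not given in the sources used here.

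Fgfr1 encodes the main FGF receptor of mesenchymal cells. It had 3535 and 4883 normalised counts with LDE225, against 2161, 2541 and 2980 with vehicle. The groups did not overlap, and LDE225 2 was the highest library. The means were 4209 ± 953 with LDE225 (SD, n = 2) and 2561 ± 410 with vehicle (SD, n = 3). limma gave a log2 fold change of 0.71 ± 0.21 (SE) and an adjusted p of 0.260. DESeq2 gave an adjusted p of 0.0689. The log2 fold change was 0.48 without LDE225 2 and 0.94 without LDE225 1.

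Hgf had 419 and 405 normalised counts with LDE225, against 215, 359 and 388 with vehicle. The groups did not overlap, but vehicle 3 came close to LDE225 2 and vehicle 1 was low by itself. Its log2 fold change was 0.40 ± 0.27 (SE, adjusted p = 0.609), and it was 0.14 without vehicle 1. Met, which encodes the HGF receptor, had 331 and 243 normalised counts with LDE225, against 1234, 409 and 452 with vehicle (log2 fold change -1.11 ± 0.48, SE, adjusted p = 0.408). Vehicle 1 set much of that difference: the log2 fold change of Met was -0.60 without it. Sums over 5 mesothelial markers were 3667 and 3549 normalised counts with LDE225, against 10349, 3869 and 4826 with vehicle, so vehicle 1 was the highest there too. The part of those cells in the Met values was not tested. In bulk samples fewer cells of a type and less RNA per cell cannot be told apart.

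Nrg1, the neuregulin 1 gene, had 85.2 and 101 normalised counts with LDE225, against 37.0, 7.72 and 60.6 with vehicle. Both LDE225 libraries were above all vehicle libraries, and vehicle 2, with 8 reads, was far below the rest. The log2 fold change was 1.78 ± 0.81 (SE, adjusted p = 0.437), of the size seen for Fgf7 but with a larger error. It was 0.95 without vehicle 2 and 2.36 without vehicle 3. Erbb3, a neuregulin receptor gene, had 230 and 112 normalised counts with LDE225, against 372, 160 and 228 with vehicle, with overlapping groups.

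Areg, the amphiregulin gene, was the member with both LDE225 libraries below vehicle. It had 60.3 and 24.5 normalised counts with LDE225, against 86.7, 68.6 and 108 with vehicle. LDE225 1 was only just under vehicle 2, whereas LDE225 2 was well below. The log2 fold change was -1.14 ± 0.45 (SE, adjusted p = 0.369), and it was -0.51 without LDE225 2 and -1.78 without LDE225 1. The summed carcinoma epithelium markers had the same order between the groups, with the lowest sum in LDE225 2 (2488 normalised counts). Of those 12 markers, 4 (Krt8, Krt18, Krt19 and Tff1) were below vehicle in both LDE225 libraries and the other 8 overlapped, and log2 fold changes were negative for 9 and positive for 3 (Epcam, Cldn4 and Esrp1). Krt8 was among the 3 genes with the profile nearest to Areg. The part of epithelial cells in the Areg values was not tested.

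Ereg, the epiregulin gene, lies beside Areg on chromosome 5 (91074622 to 91093646, and 91139599 to 91148432 for Areg, in GRCm38) but did not share its order. Ereg had 418 and 497 normalised counts with LDE225, against 362, 565 and 834 with vehicle. The groups overlapped (log2 fold change -0.28 ± 0.34, SE, adjusted p = 0.786), and the log2 fold change was 0.011 without vehicle 3. Per kilobase of exon, the level of Ereg was 2.04 and 5.97 times that of Areg with LDE225, against 1.23, 2.43 and 2.27 times with vehicle.

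Hbegf, the heparin-binding EGF-like growth factor gene, had 392 and 215 normalised counts with LDE225, against 468, 270 and 445 with vehicle. The groups overlapped, with LDE225 2 and vehicle 2 the low libraries. Its log2 fold change was -0.40 ± 0.34 (SE, adjusted p = 0.686), and 0.033 without LDE225 2. Hbegf, Areg and Ereg respond to stress in many cells. Sums over 16 early-response genes that tissue dissociation can induce were 158192 and 195853 normalised counts with LDE225, against 150231, 80420 and 154683 with vehicle. Vehicle 2 was low on that list and on Hbegf and Areg among the vehicle libraries, while LDE225 2 was the highest on the list and the lowest in Hbegf and Areg.

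Gas6 was the most abundant of the 10. It had 3606 and 6695 normalised counts with LDE225, against 5420, 3029 and 6566 with vehicle. Libraries of either group were spread over about the same range (log2 fold change 0.046 ± 0.39, SE, adjusted p = 0.976, 95% interval from -0.90 to 0.99). The log2 fold change turned to -0.28 without vehicle 2 and to -0.40 without LDE225 2, and to -0.087 with the same total per library.

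**Figure D2:**
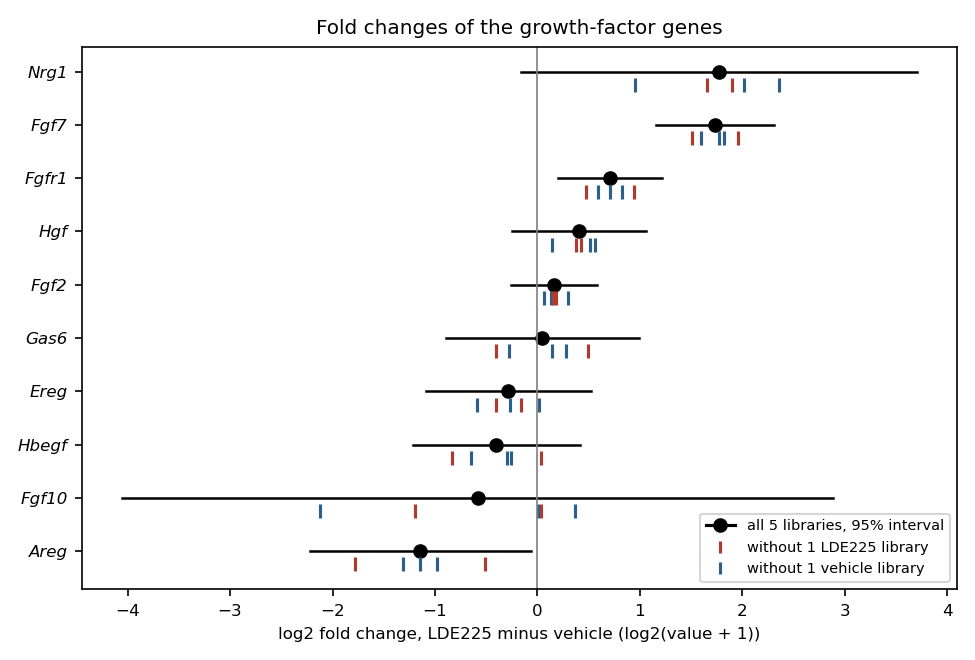
Log2 fold changes (horizontal axis, LDE225 minus vehicle, on log2(value + 1)) of the 10 genes, with limma's 95% intervals in black and the values without each library as ticks. Fgf7 keeps between 1.51 and 1.96 whichever library is left out, whereas Fgf10 moves between -2.12 and 0.37.

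Levels between genes were compared per kilobase of exon, for the 9 genes whose identifier was the same in GENCODE M21 (all but Nrg1). In the LDE225 means the order was Gas6 at 2021 normalised counts per kilobase, Fgfr1 at 426, Fgf2 at 258, Fgf7 at 115, Ereg at 111, Hbegf at 62.8, Hgf at 57.3, Areg at 34.9 and Fgf10 at 4.52. In the vehicle means it was Gas6 at 1964, Fgfr1 at 259, Fgf2 at 232, Ereg at 142, Hbegf at 81.6, Areg at 72.3, Hgf at 44.6, Fgf7 at 34.4 and Fgf10 at 13.0. Fgf7 thus stood beside Ereg with LDE225 and next to last with vehicle. The libraries of Fgf7 (97.6 and 133 with LDE225) and Ereg (101 and 120) overlapped, as did those of Fgfr1 (219 to 302) and Fgf2 (200 to 277), and of Hgf (30.0 to 54.0) and Fgf7 (28.2 to 38.7), with vehicle. Gas6 lay above every other member in all 5 libraries.

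**Figure D3:**
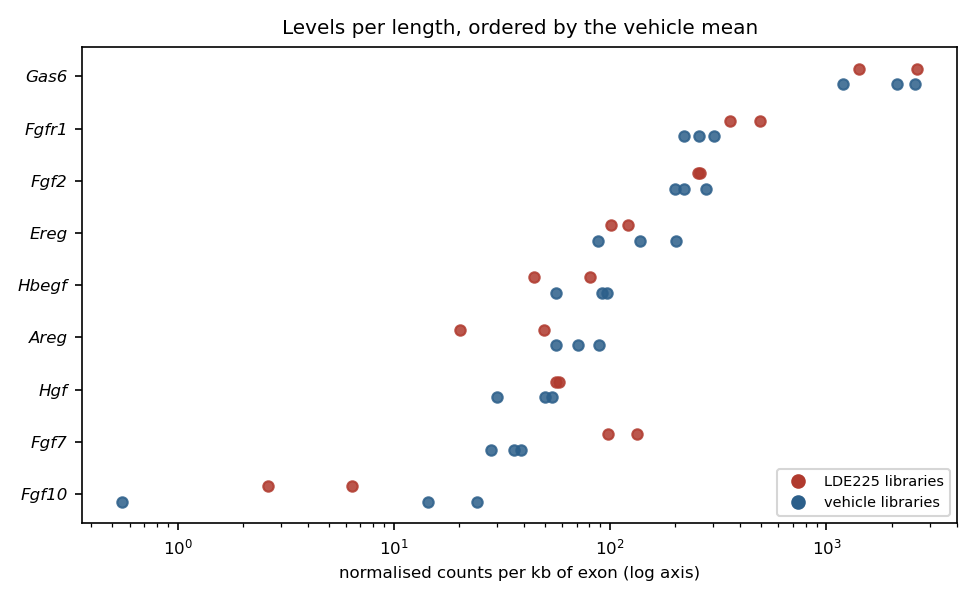
Normalised counts per kilobase of exon (horizontal log axis) of 9 growth-factor genes in the LDE225 libraries (red, upper row of each gene) and the vehicle libraries (blue, lower row). Gas6 is highest in all libraries, and Fgf7 moves up past Hgf, Areg and Hbegf in the LDE225 libraries.

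Profiles over the 5 libraries were also compared by Euclidean distance on centred log2 values, among 10938 other genes with a mean of at least 50. Nearest to Fgf7 were Cpxm1 (distance 0.25), Igsf10 (0.33) and Snhg11 (0.35). Cpxm1, a carboxypeptidase-like gene, had 16463 and 12663 normalised counts with LDE225, against 3920, 3639 and 5307 with vehicle. Nearest to Fgfr1 were Slc49a4 (0.14), Ece2 (0.15) and Thbs3 (0.16), and nearest to Areg were Cdk18 (0.43), Krt8 (0.50) and Apol9b (0.51).

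The wider pathway was read from 10 lists of ligands, receptors, release enzymes, adaptors, heparan sulfate genes and feedback genes. Leaving out the 10 members, 79 listed genes were tested, and in limma 0 passed over all genes. At an unadjusted p under 0.05 in limma, 9 were higher and 7 lower, against 912 and 753 of all 13183 genes tested. Among the 79, edgeR called 0 (0.0152% of all genes). DESeq2 called 1 higher (Pros1) and 4 lower (Rhbdf2, Dusp4, Dusp5 and Dusp6), against 2.39% and 1.84% of the 12670 genes with a DESeq2 adjusted p. The groups did not overlap for 19.0% of the 79 with LDE225 higher and 17.7% with LDE225 lower, near the 16.6% and 15.2% of all genes. Their median log2 fold change was 0.0061.

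Other FGF family genes were few. Of 9 tested, members included, log2 fold changes were positive for 7 and negative for Fgf1 and Fgf10. The median over the 9 was 1.31, or 0.42 without vehicle 2 and 0.60 without vehicle 3. That 1.31 was the value of Fgf14, a low gene with overlapping groups. Like Fgf11, Fgf14 encodes an intracellular FGF homologue, so the 9 are not all secreted ligands. Fgf1 had 938 and 585 normalised counts with LDE225, against 1910, 1011 and 578 with vehicle (log2 fold change -0.49, adjusted p = 0.735 in limma). Sums over the 14 FGF family genes found also overlapped, at 4001 and 3274 with LDE225, against 3804, 2915 and 3098 with vehicle. Fgf18 had 208 and 149 normalised counts with LDE225, against 84.1, 18.3 and 75.7 with vehicle (log2 fold change 1.82 ± 0.66, SE, adjusted p = 0.329). Fgf11, an intracellular FGF homologue, had 201 and 216 with LDE225, against 163, 144 and 149 with vehicle (adjusted p = 0.395). Among the 6 receptor and co-factor genes tested, those encoding FGFR3 and FGFR4 were low and below vehicle in both LDE225 libraries. Fgfr3 had 28.9 and 34.7 normalised counts with LDE225, against 85.4, 47.3 and 60.6 with vehicle (adjusted p = 0.376). Fgfr4 had 2.41 and 13.5 with LDE225, against 31.9, 36.7 and 15.1 with vehicle (adjusted p = 0.419). The more abundant Fgfrl1 lay above vehicle in both LDE225 libraries, as Fgfr1 did. It had 281 and 327 with LDE225, against 219, 210 and 269 with vehicle (adjusted p = 0.475). Fgfr2, the receptor gene for FGF7 and FGF10, overlapped, with 351 and 525 normalised counts with LDE225 and 661, 451 and 585 with vehicle.

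Of 8 EGF-family ligand genes tested, 7 had negative log2 fold changes (median -0.28), Nrg1 being the exception, against 6541 of all 13183 genes tested. Hbegf, Ereg, Tgfa and Egf turned positive when 1 library or another was left out, and Btc was positive in edgeR and DESeq2 (0.14). Sums over the 10 ligand genes found overlapped, at 1359 and 1056 with LDE225, against 1480, 1175 and 1785 with vehicle. Egfr, the receptor gene for Areg, Ereg and Hbegf, was the ErbB gene with the tightest values. It had 4955 and 4935 normalised counts with LDE225, against 3911, 3982 and 3820 with vehicle (log2 fold change 0.34 ± 0.14, SE, adjusted p = 0.389). Erbb2, the shared ErbB partner gene, had 489 and 465 with LDE225, against 612, 536 and 498 with vehicle (adjusted p = 0.664).

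Rhbdf2 gave the largest separation among the 4 release genes. It encodes iRhom2, which helps the protease ADAM17 to mature and to release EGF-family ligands. Rhbdf2 had 249 and 254 normalised counts with LDE225, against 742, 965 and 639 with vehicle. Both LDE225 libraries were far below all vehicle libraries. Its log2 fold change was -1.61 ± 0.20 (SE, adjusted p = 0.0819), and DESeq2 called it. Rhbdf1, the related iRhom gene, had 1045 and 1160 normalised counts with LDE225, against 772, 1138 and 1082 with vehicle. Its groups overlapped (log2 fold change 0.16, adjusted p = 0.796 in limma). Adam17 itself had 1163 and 1225 with LDE225, against 1106, 901 and 885 with vehicle (adjusted p = 0.475), and Adam10, which encodes another sheddase, overlapped.

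In the GAS6 axis, log2 fold changes were positive for 6 of 7 tested genes (median 0.17), and for 4 with the same total per library or with quantile normalisation, where Gas6 and Axl turned negative. Pros1 encodes protein S, a plasma anticoagulant and a ligand of MERTK and TYRO3. It had 5338 and 5202 normalised counts with LDE225, against 2221, 2713 and 2534 with vehicle (log2 fold change 1.09 ± 0.15, SE, adjusted p = 0.0923; DESeq2 called it). The receptor gene Axl overlapped, with 7147 and 11123 normalised counts with LDE225 and 7645, 8480 and 8790 with vehicle, and Mertk had 61.9 and 103 with LDE225 and 98.1, 107 and 59.4 with vehicle. Tyro3 lay above vehicle in both LDE225 libraries, at 356 and 378, against 194, 346 and 334 with vehicle. Its log2 fold change was 0.38 (adjusted p = 0.640 in limma), and 0.11 without vehicle 1. Ggcx, the vitamin K-dependent carboxylase gene, whose product modifies GAS6 and protein S, had 1158 and 1268 with LDE225, against 891, 891 and 1035 with vehicle (adjusted p = 0.365).

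Growth factor receptors signal through ERK, which induces its own inhibitors. The feedback list also holds ERK-induced transcription factor genes (Etv1, Etv4 and Etv5). Of its 14 genes tested, 10 had negative log2 fold changes (median -0.29), against 6541 of all 13183 genes tested. Of the 14, 6 were below vehicle in both LDE225 libraries (15.2% of all genes were) and 2 were above (16.6% of all genes were). Dusp5, which encodes a phosphatase of nuclear ERK, had 280 and 310 normalised counts with LDE225, against 531, 835 and 634 with vehicle (log2 fold change -1.15 ± 0.22, SE, adjusted p = 0.137). Dusp4 had 458 and 436 with LDE225, against 881, 1613 and 741 with vehicle (adjusted p = 0.223). Dusp6 and the Sprouty gene Spry4, picked after their values were seen, had 608 and 587, and 374 and 374, with LDE225, against 1316, 1895 and 830, and 669, 1230 and 554, with vehicle. Vehicle 2 was the highest library for all 4. Going the other way, Il17rd, an FGF signalling inhibitor gene, had 492 and 517 with LDE225, against 359, 233 and 275 with vehicle (adjusted p = 0.213). Etv1, an ERK-induced transcription factor gene also picked after its values were seen, had 383 and 364 with LDE225, against 326, 175 and 161 with vehicle (adjusted p = 0.360). Unlike Spry4, the Sprouty genes Spry1 and Spry2 had overlapping groups and positive log2 fold changes (0.18 and 0.094).

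**Figure D4:**
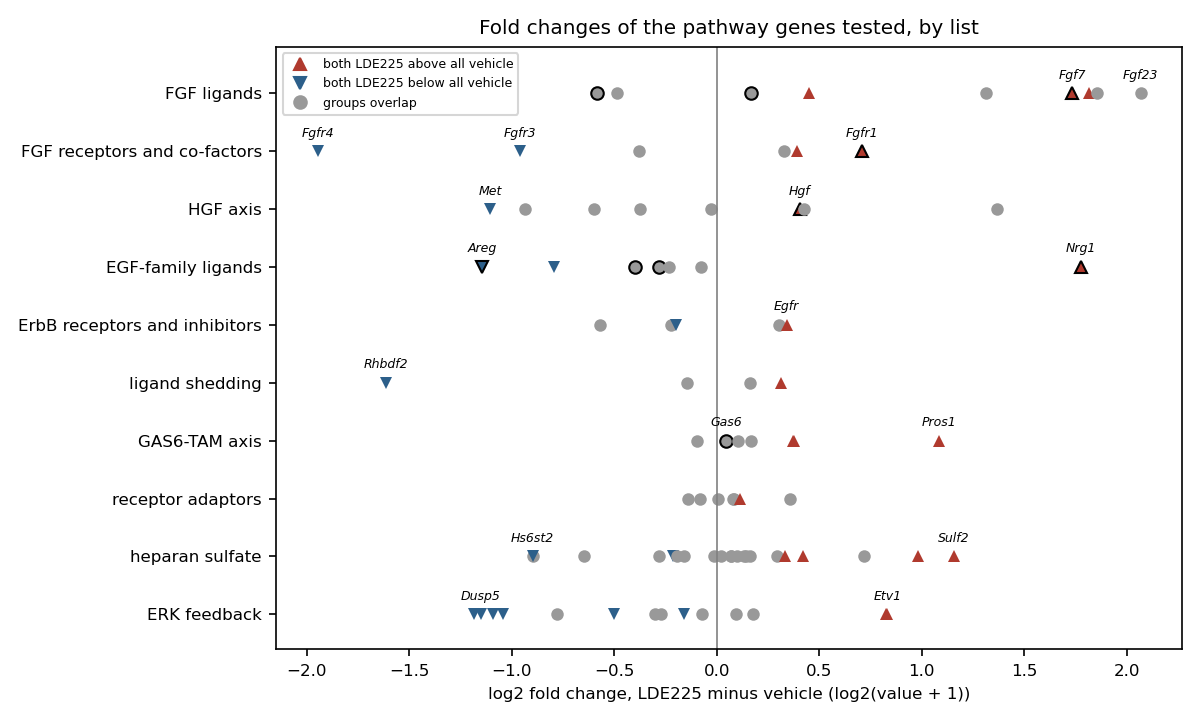
Log2 fold changes (horizontal axis, LDE225 minus vehicle, on log2(value + 1)) of the tested pathway genes in 10 lists; triangles mark genes whose groups do not overlap and black rims mark the growth-factor genes named first. Rhbdf2 (-1.61) and Pros1 (1.09) stand apart in their lists, and the receptor adaptors lie close to 0.

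**Figure D5:**
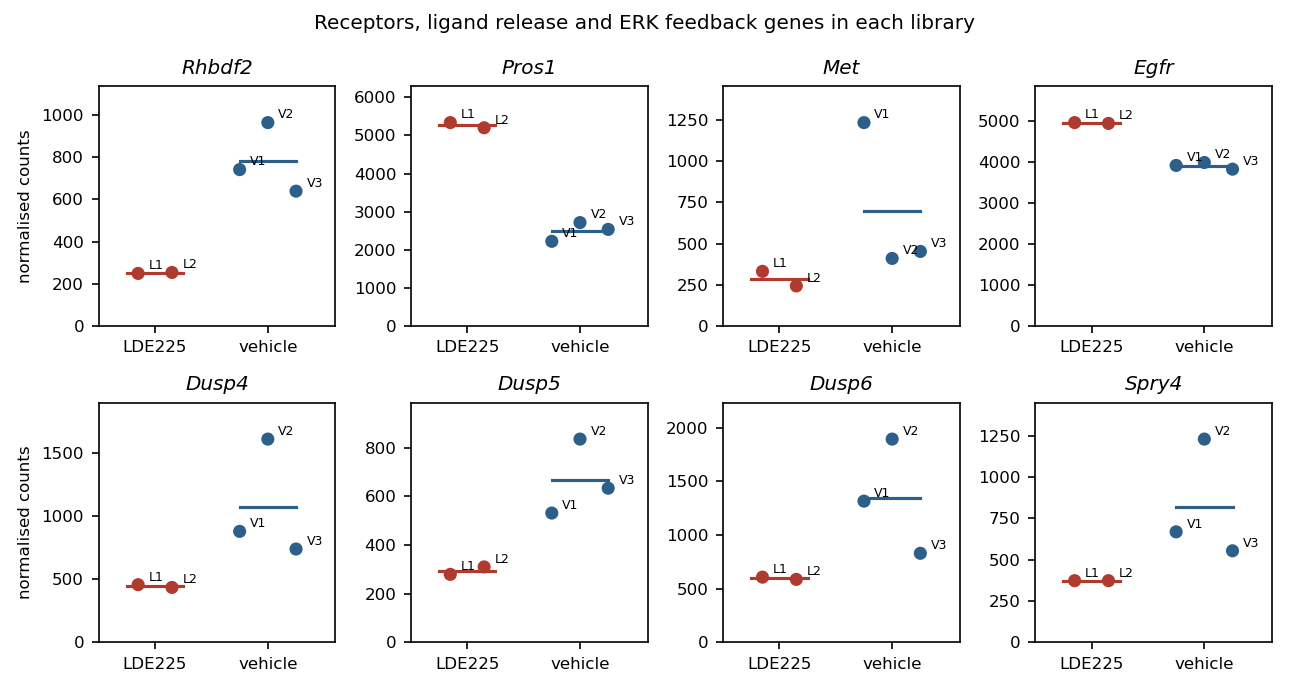
Normalised counts (vertical axes, starting at 0) of Rhbdf2, Pros1, Met, Egfr and 4 ERK feedback genes in the LDE225 libraries (L1, L2, red) and the vehicle libraries (V1 to V3, blue), with group means as lines. Only genes whose groups do not overlap were drawn, and the 4 feedback genes are ones that were lower with LDE225. Feedback genes that were higher (Il17rd and Etv1) or that overlapped are not shown. Vehicle 1 is alone at 1234 for Met.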

How the data were processed

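RNA of sorted podoplanin-positive cells was sequenced after ribosomal depletion with a directional kit, per the labels' protocols. The authors deposited a signal per gene: read counts divided by a DESeq2 size factor, not scaled for length. STAR 2.7.3, RSEM 1.2.29, DESeq2 1.22.2 and GRCm38 are named, without role, per the submitters' processing notes. The gene filter and strand setting were not given in the sources used here. All values (100%) were whole multiples of 1 read within 0.001 reads, which gave the recovered reads. Of the symbols, 23 turned into dates were restored by identifier, and 3 columns without a header were not used.

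limma 3.58.1 (R 4.3.3, with trend) was run two-sided on log2(value + 1), keeping the 13183 genes that averaged 10 or more over the libraries, with Benjamini-Hochberg adjustment over all of them and a threshold of 0.05; the added 1 shrinks low values, and fold changes here are differences of mean logs, so for low, uneven genes they can lie below those of edgeR and DESeq2 (Fgf10) or above them (Nrg1). Of the 15180 genes, all 10 members passed that filter. A two-sided exact rank test over the 10 arrangements of libraries cannot go below p = 0.2, and no exact permutation over them can reach 0.05. edgeR 4.0.16 and DESeq2 1.42.0 were run on recovered reads, and each tool was tested on simulated data. That simulation gave every gene the same relative spread, unlike these libraries, so it does not show how reliable the calls are here. P-values measure the spread between these libraries, which may be technical. Deeper libraries detect low genes better.

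All members were named, with 7 receptor genes, up to 3 further genes per list by smallest p, and the 3 nearest genes of the 3 members with smallest p. Members and lists were chosen with earlier results of these data known. Same-numbered libraries correlated at 0.13 and -0.017 in their deviations from group means, and no label says that the numbers pair them. The deviations of LDE225 1 and LDE225 2 are mirror images, so these correlations cannot settle whether libraries are paired. Exon lengths and coordinates are those of GENCODE M21.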

Additional observations from a re-analysis of the deposited data

How the results depend on the processing

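Of the 10 members, 6 kept their direction under all 17 alternatives and 4 (Fgf10, Hbegf, Ereg and Gas6) did not. Fgf10 has no value with a mean of at least 50. Called genes, 3 higher and 1 lower in limma, were 303 and 233 in DESeq2, 70 and 38 with array weights, 16 and 5 with a replicate block (the numbers are not known to pair libraries), 4 and 2 with the same total per library, and 0 lower in edgeR and in limma without trend. Leaving out 1 library gave 0 to 6 higher and 0 to 4 lower. Members called were 1 higher (Fgf7) in DESeq2 and with array weights (adjusted p = 0.0419), and 0 otherwise. Pathway genes called, members included, were 2 higher in both, with 4 lower in DESeq2 and 2 lower with array weights. Where 1 LDE225 library was left, it was assumed to vary like vehicle; the adjusted p of Fgf7 was then 0.559 or 0.517. The same total per library moved the median log2 fold change of all genes to -0.13; Gas6 (-0.087), Axl (-0.028) and Grb2 (-0.018) turned negative, all above that shift. Quantile normalisation turned Gas6 (-0.065) and Axl (-0.097), array weights Gas6 (-0.066), Mertk (0.089) and Egf (0.0096), and the replicate block Fgf10 (0.0027) and Ereg (0.011). With 1 library left out, log2 fold changes ranged from -2.12 to 0.37 for Fgf10, -0.83 to 0.033 for Hbegf, -0.59 to 0.011 for Ereg, -0.40 to 0.49 for Gas6, -0.21 to 0.42 for Axl, -0.46 to 0.27 for Mertk, -0.74 to 0.17 for Tgfa, -0.92 to 0.45 for Egf, -0.52 to 1.13 for Errfi1 and -0.061 to 0.60 for Frs3. The cause of these moves was not tested. Fgf10 and Nrg1, with 224 and 314 reads over the 5 libraries, were the members with fewest reads.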

Other observations

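FGFs, HGF and HB-EGF bind heparan sulfate, the sugar chain that holds them in the matrix. Of 21 heparan sulfate genes tested, 13 had positive log2 fold changes (median 0.068), but 9 with the same total per library and 11 with quantile normalisation. Of the 21, 0 passed limma, edgeR or DESeq2. At an unadjusted p under 0.05 in limma, 2 were higher and 1 lower, against 912 and 753 of all 13183 genes tested. Sulf2, which encodes a sulfatase that trims these chains outside the cell, had 5187 and 6686 normalised counts with LDE225, against 3679, 1547 and 3228 with vehicle (log2 fold change 1.16 ± 0.38, SE, adjusted p = 0.289 in limma). The glypican gene Gpc6 had 730 and 985 with LDE225, against 313, 372 and 677 with vehicle. Hs6st2, a sulfotransferase gene, had 243 and 281 with LDE225, against 294, 696 and 566 with vehicle (log2 fold change -0.90 ± 0.36, SE, adjusted p = 0.375).

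Fgf23, an endocrine FGF gene best known from bone, was unevenly present, at 358 and 102 normalised counts with LDE225, against 39.5, 13.5 and 163 with vehicle. LDE225 2 lay below vehicle 3, so the groups overlapped (log2 fold change 2.07 ± 1.02, SE, adjusted p = 0.469).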
